A study of Macaca nemestrina with 15 samples.

Results

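The p53 target genes were followed in the blood cells of macaques that received islatravir (ISL), a nucleoside analog active against HIV. The group was a fixed list of 10 genes that p53 is known to switch on: *CDKN1A*, *MDM2*, *BAX*, *BBC3*, *GADD45A*, *SESN1*, *ZMAT3*, *RRM2B*, *TP53INP1* and *FAS*. Members were found by matching these symbols to the gene names of the count table, with no use of their values. Of the 28865 features in the table, 9 were members, and all 9 passed the filter on low counts together with 12880 features in all. *RRM2B* was not analysed here.

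The tumor suppressor p53 is a transcription factor that is held at a low level by the ubiquitin ligase MDM2 and that accumulates after DNA damage, stalled replication or shortage of nucleotides. It then raises the transcription of genes that stop the cell cycle, of genes that start cell death, of genes that repair DNA or limit oxidative stress, and of its own inhibitor *MDM2*. Blood lymphocytes are sensitive to this pathway and readily die after DNA damage. ISL is a deoxyadenosine analog that cells convert to a triphosphate, which blocks the HIV reverse transcriptase by preventing its translocation and further chain growth. The comparison asked whether such an agent, taken for weeks, was accompanied by higher levels of p53 targets in blood cells.

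The samples were peripheral blood mononuclear cells (PBMCs) of 5 female pig-tailed macaques (*Macaca nemestrina*), whose age was not stated. Each animal (Z15228, Z13076, Z15339, Z15303 and Z15408) gave 1 library before treatment, 1 at week 12 of once-weekly oral ISL at 30 mg/kg, and 1 at week 18, after dosing had stopped. All animals received the 12 doses, and no untreated animals were sequenced, so that the drug and the passing of time cannot be told apart. The animals Z15339, Z15303 and Z15408 carry the same 3 dates in their library names, whereas Z15228 and Z13076 carry other dates. By these dates, the second library of an animal lies 56 to 57 days and its last 84 days after the earliest, which is shorter than the week labels, and what the dates mark was not stated. The labels are used below.

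Between 5610597 and 10379572 reads were counted per library, with a median of 8871860, and the shallowest 2 libraries were those of Z15303 at week 12 and week 18. Levels are given as CPM, the read counts brought to a common library size, after scaling by edgeR's trimmed mean of M-values (TMM), with mean ± SD over n = 5 animals where an error is shown. CPM is not divided by transcript length, so levels are compared between samples of 1 gene and not between genes. Members had 64 to 3971 counts per library. Changes are log2 fold changes of edgeR's quasi-likelihood fit that holds the animal as a block, so that each animal is compared with itself, and a gene passed at a Benjamini-Hochberg adjusted p under 0.05 over all features tested. The markers of T-cells (10 of 10), natural killer (NK) cells (8 of 8), monocytes (9 of 10) and B-cells (10 of 12) were measured above the filter, and these are the cell types that PBMCs hold.

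No p53 target gene passed the test at any time. At week 12, edgeR's quasi-likelihood test passed 0 of 9 members at the adjusted threshold, where it passed 0.00776% of all features. DESeq2's Wald test and limma-voom, each with the block, passed 0 of 9 in this and in the other comparisons. Of all 12880 features, DESeq2 passed 27 at week 12, 43 at week 18 and 1 between week 18 and week 12. With limma-voom, 14 features passed at week 12 and 18 at week 18. With an unadjusted p under 0.05, 0 members were higher and 1 was lower at week 12, beside 1.44% and 3.25% of all features. At week 18, 0 of 9 members passed the adjusted threshold, against 0.00776% of features, while 1 was higher and 2 were lower with an unadjusted p under 0.05, beside 2.07% and 3.78% of features. Between week 18 and week 12, 0 of 9 members passed the adjusted threshold, as did 0% of features, and 0 were higher and 0 lower at the unadjusted threshold, beside 1.16% and 1.01% of features.

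The members were split in direction. Their median log2 fold change was −0.08 at week 12 and −0.03 at week 18 against pre-treatment, and −0.03 between week 18 and week 12, where the median of all features was 0.00 in size at each comparison. At week 12, 4 members had positive and 5 negative fold changes, and the same split of 4 and 5 was seen at week 18 against pre-treatment. The values before and after treatment overlapped for every member in every comparison, as they did for all but 0.280%, 0.334% and 0.109% of all features. The sum of the 9 members' CPM ranged from 579 to 758 before treatment, from 540 to 720 at week 12 and from 615 to 727 at week 18. *CDKN1A* and *BAX*, with means of 363 and 134 CPM before treatment, weigh most in this sum, so it says little about the other members.

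The intervals set a limit, gene by gene, on how large a rise of a single member could have been. At week 12 the highest upper bound of a 95% interval was 0.56 on the log2 scale, for *GADD45A*, which is a 1.48-fold rise. At week 18 it was 0.66 for *BBC3*, or 1.57-fold. *CDKN1A* and *MDM2* had upper bounds of 1.08-fold and 1.17-fold at week 12 and of 1.19-fold and 1.09-fold at week 18. These bounds are for the average of the PBMCs. In such bulk samples, fewer cells of a type and less RNA per cell cannot be told apart, and a rise in a small cell population would be diluted.

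**Figure D1:**
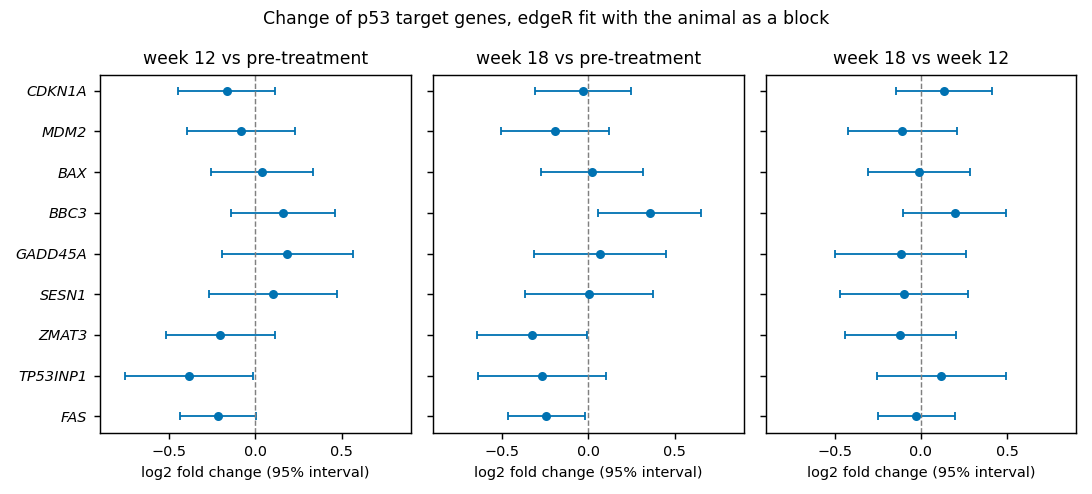
Log2 fold changes of the 9 p53 target genes in the 3 comparisons, from edgeR's fit with the animal as a block; points are estimates and bars are 95% intervals, and the dashed line marks no change. Most intervals include 0, and those that do not are *TP53INP1* at week 12 (−0.38) and *BBC3* (0.36), *ZMAT3* (−0.32) and *FAS* (−0.24) at week 18, none of which passed after adjustment.

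Among the genes that stop the cell cycle, *CDKN1A* encodes p21, the inhibitor of cyclin-dependent kinases and the most widely used readout of p53 activity. Before treatment it stood at 318, 448, 299.6, 420.1 and 329 CPM in Z15228, Z13076, Z15339, Z15303 and Z15408, in which order the animals are listed throughout. At week 12 the values were 315, 263, 353, 329 and 341 CPM. At week 18 they were 331, 398, 303, 330.5 and 409.9 CPM. The highest pre-treatment animal, Z13076, became the lowest at week 12 and returned to second place at week 18. Group means were 363 ± 66.3, 320.2 ± 34.8 and 354 ± 46.8 CPM at the 3 times. The log2 fold change was −0.17 (SE 0.13) at week 12 and −0.03 (SE 0.13) at week 18, with adjusted p = 0.982 and 0.983 in edgeR's test.

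*GADD45A*, a stress sensor that binds the replication clamp and takes part in growth arrest and DNA repair, did not follow 1 course in all animals. It stood at 34.0, 26.4, 14.2, 17.6 and 16.1 CPM before treatment. At week 12 the level was 22.4, 30.5, 21.6, 23.2 and 22.0 CPM, and at week 18 it was 19.7, 23.2, 18.1, 28.9 and 20.8 CPM. The values before treatment spread 2.39-fold from lowest to highest, whereas those at week 12 spread 1.41-fold, with Z13076 alone above the others. The gene was higher at week 12 in 4 of 5 animals and lower in Z15228, and its log2 fold change was 0.18 (SE 0.18) at week 12 and 0.07 (SE 0.18) at week 18.

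*MDM2*, the ligase that marks p53 for degradation and is itself a p53 target, closes the feedback loop and is among the first genes to respond when p53 is active. Its pre-treatment level was 16.8, 16.0, 18.6, 20.5 and 21.2 CPM. It was 15.1, 17.3, 19.2, 19.0 and 17.5 CPM at week 12 and 13.3, 20.7, 17.2, 18.9 and 12.2 CPM at week 18. The 5 animals lay close together at week 12, and the 2 lowest values of all 15 libraries were those of Z15408 and Z15228 at week 18. *MDM2* was lower in 3 of 5 animals at week 12 and in 4 of 5 at week 18, with log2 fold changes of −0.08 (SE 0.15) and −0.19 (SE 0.15).

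*MDM4*, which encodes the partner of MDM2 in holding p53 inactive, did not stand apart over time. It ranged from 16.7 to 21.0 CPM before treatment, from 18.0 to 25.6 at week 12 and from 18.0 to 26.0 at week 18, so that the groups overlapped. Its log2 fold changes against pre-treatment were 0.16 and 0.14 (SE 0.14 in each). The activity of p53 is regulated mainly at the level of the protein, which RNA-seq does not measure.

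The cell death genes did not share a direction. *BBC3*, which encodes PUMA, a BH3-only protein that disables the survival proteins of the BCL2 family, was the member with the most positive fold change at week 18. Its level was 24.4, 24.2, 17.4, 21.2 and 17.8 CPM before treatment and 21.4, 19.1, 24.4, 29.7 and 23.6 CPM at week 12. At week 18 it was 26.1, 23.3, 27.6, 30.3 and 27.4 CPM. The 4 highest week 18 values exceeded all pre-treatment values, and Z13076 at 23.3 CPM lay within the pre-treatment range, so that the groups overlapped through this animal alone. Group means were 21.0 ± 3.37, 23.6 ± 3.95 and 26.9 ± 2.55 CPM at the 3 times. At week 18 the log2 fold change was 0.36 (SE 0.14), with a 95% interval of 0.06 to 0.66 and higher values in 4 of 5 animals, and its adjusted p was 0.814 in edgeR's test.

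From week 12 to week 18, *BBC3* was higher in 5 of 5 animals, by 0.03 to 0.29 on the log2 scale. It was the single member that was higher in 5 of 5 animals in this comparison, beside 2.98% of features, and 0 members were lower in 5 of 5, beside 2.87%. The log2 fold change was 0.20 (SE 0.14), and its 95% interval of −0.10 to 0.50 included 0.

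*BAX*, the effector that opens the outer mitochondrial membrane, had 164, 136, 109, 142 and 119.8 CPM before treatment. It had 154, 90.7, 119.5, 158 and 175 CPM at week 12 and 119, 125, 129, 176 and 133 CPM at week 18. Z13076 was lowest at week 12 and Z15303 stood above the others at week 18, and the group means of 134 ± 21.0, 139 ± 33.9 and 137 ± 22.8 CPM differed by less than the spread between animals. Its log2 fold change was 0.04 (SE 0.14) at week 12 and 0.02 (SE 0.14) at week 18.

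*FAS*, the cell surface death receptor CD95, which is also carried by activated and memory lymphocytes, varied least within animals of the members (SD 0.15 on the log2 scale). Before treatment it stood at 45.4, 43.8, 37.6, 27.7 and 44.7 CPM. At week 12 it was 40.6, 39.0, 32.4, 24.0 and 35.7 CPM, lower in every animal by 0.16 to 0.32 on the log2 scale. At week 18 it was 37.5, 43.9, 29.1, 22.1 and 37.3 CPM, back at its first level in Z13076 and below it in the other 4 animals. The 3 libraries of Z15303 were below the 12 libraries of the other animals. Its log2 fold change was −0.22 (SE 0.11; unadjusted p = 0.0547) at week 12 and −0.24 (SE 0.11; unadjusted p = 0.034) at week 18, with adjusted p = 0.982 and 0.825 in edgeR's test.

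*ZMAT3*, an RNA-binding zinc finger protein that takes part in growth control by p53, was also lower in 5 of 5 animals at both times. Its level was 16.0, 12.4, 17.3, 17.0 and 22.9 CPM before treatment, 15.3, 7.70, 17.2, 16.4 and 18.8 CPM at week 12, and 14.1, 10.8, 16.1, 12.8 and 13.7 CPM at week 18. At week 12 the difference was small in Z15339, Z15303 and Z15228 (−0.01 to −0.06 on the log2 scale), and Z13076 was far below the other animals. Against pre-treatment the log2 fold change was −0.20 (SE 0.15) at week 12 and −0.32 (SE 0.15) at week 18, where the adjusted p was 0.843 in edgeR's test. *ZMAT3* and *FAS* were the 2 members lower in 5 of 5 animals at week 12, beside 3.45% of features, and 0 members were higher in 5 of 5, beside 2.22%. At week 18, *ZMAT3* was the 1 member lower in 5 of 5, beside 3.49% of features, and 0 were higher in 5 of 5, beside 3.04%.

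*TP53INP1*, a cofactor of p53 that promotes cell death and autophagy, had the most negative fold change of the members at week 12. It stood at 26.1, 23.2, 35.8, 22.9 and 62.0 CPM before treatment, at 24.4, 28.5, 25.9, 16.2 and 31.7 CPM at week 12, and at 26.9, 36.1, 26.6, 17.2 and 29.7 CPM at week 18. The pre-treatment value of Z15408 was the highest of all 15 libraries, and Z13076 was higher at both later times. Over all animals the log2 fold change was −0.38 (SE 0.18; adjusted p = 0.982 in edgeR's test) at week 12 and −0.27 (SE 0.18) at week 18. Without Z15408, it was −0.20 at week 12 and −0.04 at week 18.

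*SESN1*, a sestrin that limits oxidative stress and the growth kinase mTORC1, took opposite courses in different animals. The values were 46.2, 28.4, 29.6, 34.4 and 55.3 CPM before treatment, 32.7, 43.7, 47.7, 32.1 and 54.4 CPM at week 12, and 29.6, 46.8, 48.6, 27.5 and 43.1 CPM at week 18. It was higher at both later times in Z13076 and Z15339, by 0.62 to 0.72 on the log2 scale, and lower at both in the other 3 animals. The log2 fold change over all animals was 0.10 (SE 0.18) at week 12 and 0.00 (SE 0.18) at week 18.

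**Figure D2:**
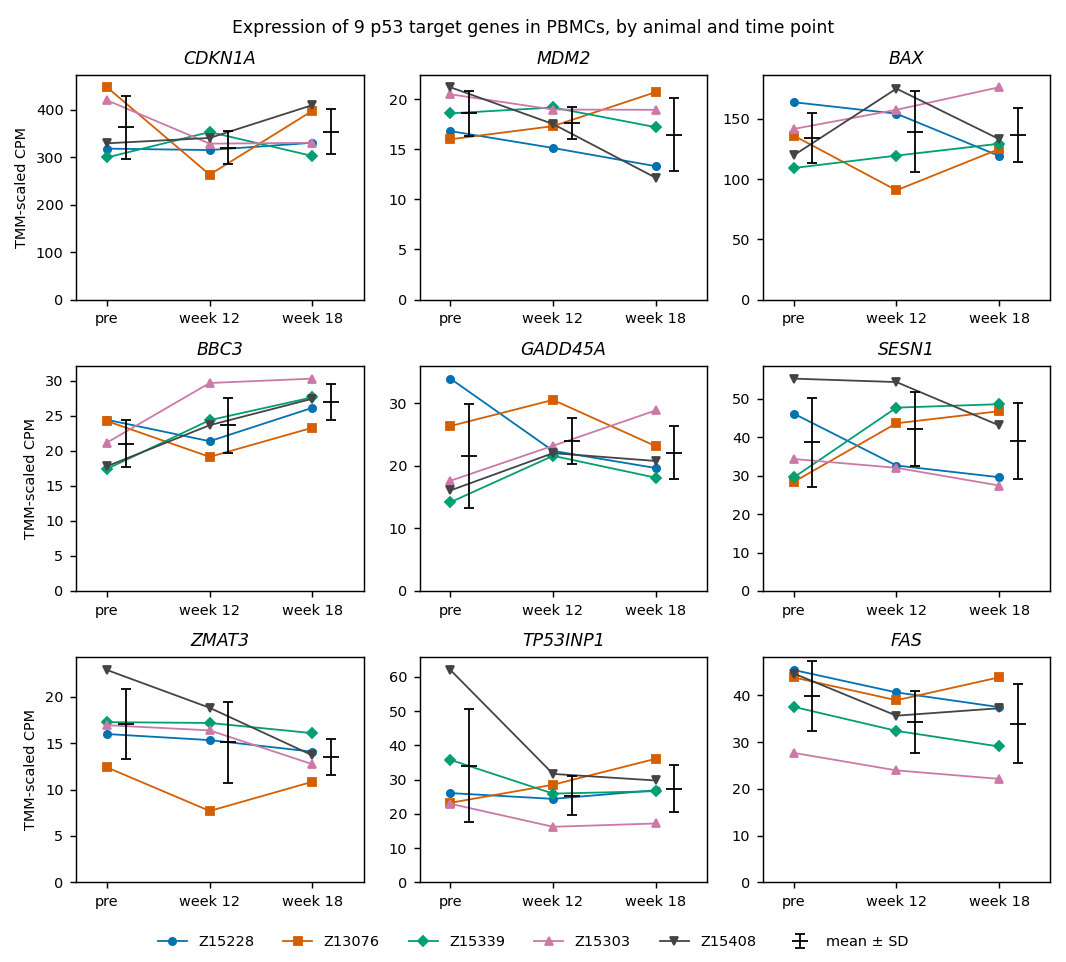
TMM-scaled CPM of the 9 members (vertical axis, from 0) before treatment, at week 12 and at week 18; lines join the 3 libraries of each of the 5 animals, and the black bars give the mean and SD. The lines cross in most panels, *FAS* keeps Z15303 lowest throughout, and *BBC3* at week 18 (23.3 to 30.3 CPM) lies mostly above its pre-treatment range (17.4 to 24.4 CPM).

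How far the members differed between animals was compared with how far they varied within an animal. For *FAS*, the SD between animal means was 2.10 times the SD within animals on the log2 scale, and 6.57% of all features had a ratio as high. *ZMAT3* (1.27) and *TP53INP1* (1.11) also differed more between than within animals, as did 45.7% of features. The ratio was 0.41 for *CDKN1A* and for *BBC3*, and lay between 0.66 and 0.82 for *MDM2*, *BAX*, *GADD45A* and *SESN1*, where the median of all features was 0.95.

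Taken animal by animal, no animal had most of its members higher at both later times apart from Z15339. At week 12, 0 of 9 members were higher in Z15228, 4 in Z13076, 6 in Z15339, 3 in Z15303 and 4 in Z15408, while 47.2% to 51.2% of all features were higher. At week 18, 3, 4, 5, 3 and 4 of 9 members were higher than before treatment, in the same order, beside 47.0% to 51.9% of all features. Between week 12 and week 18, 8 of 9 members were higher in Z13076, where 49.5% of features were. In the other animals 3 to 5 members were higher, beside 49.9% to 50.6% of features.

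The week 12 library of Z13076 stood apart for several members. In it, *CDKN1A*, *BAX* and *ZMAT3* were below pre-treatment by −0.76, −0.58 and −0.67 on the log2 scale, and they were closer to pre-treatment again at week 18. In the same library 4 of 9 members were higher than before treatment, *SESN1* the most, by 0.62. The same library had lower monocyte markers (mean log2 change −0.80 over 9 genes, from 4672 to 2977 in summed CPM), immediate early genes (−0.88 over 11 genes) and neutrophil markers (−0.97 over 5 genes), and higher platelet markers (1.14 over 6 genes, from 3520 to 8218 in summed CPM). It was not the only library with such shifts. The week 12 library of Z15228 had lower platelet markers (−1.19) and red cell markers (−1.19 over 2 genes), and 0 of 9 members were higher in it. The part of these cell populations in the members' values was not tested. Without Z13076, the log2 fold change at week 12 was −0.02 for *CDKN1A*, 0.18 for *BAX*, 0.29 for *BBC3* and −0.11 for *ZMAT3*.

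The changes were also set beside the dates in the library names. At week 12, *BAX* and *BBC3* were higher in each of the 3 animals with shared dates and lower in both other animals. The mean log2 change was 0.28 and −0.34 for *BAX* and 0.46 and −0.26 for *BBC3* in these 2 sets. At week 18, *BAX* (0.24 and −0.29) and *GADD45A* (0.47 and −0.48) were higher in the 3 animals and lower in the other 2, and *TP53INP1* (−0.63 and 0.34) was the reverse. Thus 2 of 9 members at week 12 and 3 of 9 at week 18 were divided by the dates, beside 16.5% and 16.3% of all features, and 0 of 9 were so divided between week 18 and week 12, beside 5.54%. With 9 members, the count at week 12 is near the share of all features.

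Within the 3 animals of shared dates, again no member passed. At week 12, *BBC3* (0.47, 95% interval 0.16 to 0.79), *GADD45A* (0.51, 0.15 to 0.86) and *BAX* (0.30, 0.02 to 0.58) were higher with an unadjusted p under 0.05, and *TP53INP1* (−0.65, −0.99 to −0.30) was lower. These are 3 and 1 of 9 members, beside 8.44% of features higher and 7.86% lower in this fit. At week 18, *BBC3* (0.62, 0.30 to 0.93) and *GADD45A* (0.50, 0.14 to 0.85) were higher and *ZMAT3* (−0.40), *TP53INP1* (−0.64) and *FAS* (−0.30) lower, which is 2 and 3 of 9 members, beside 9% and 8.54% of features. The smallest adjusted p was 0.0821, for *BBC3* at week 18 in edgeR's test. In the same fit, *CDKN1A* had log2 fold changes of −0.01 and 0.01 and *MDM2* of −0.10 and −0.33 at week 12 and week 18, and *ZMAT3* had −0.11 at week 12. The highest upper bound in these 3 animals was a 1.82-fold rise at week 12, for *GADD45A*, and 1.91-fold at week 18, for *BBC3*. A set of 2 animals with dates of their own does not allow a fit within dates, and date and animal cannot be told apart. In the 3 animals of shared dates, each date belongs to 1 time point, so date and time point cannot be told apart either.

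**Figure D3:**
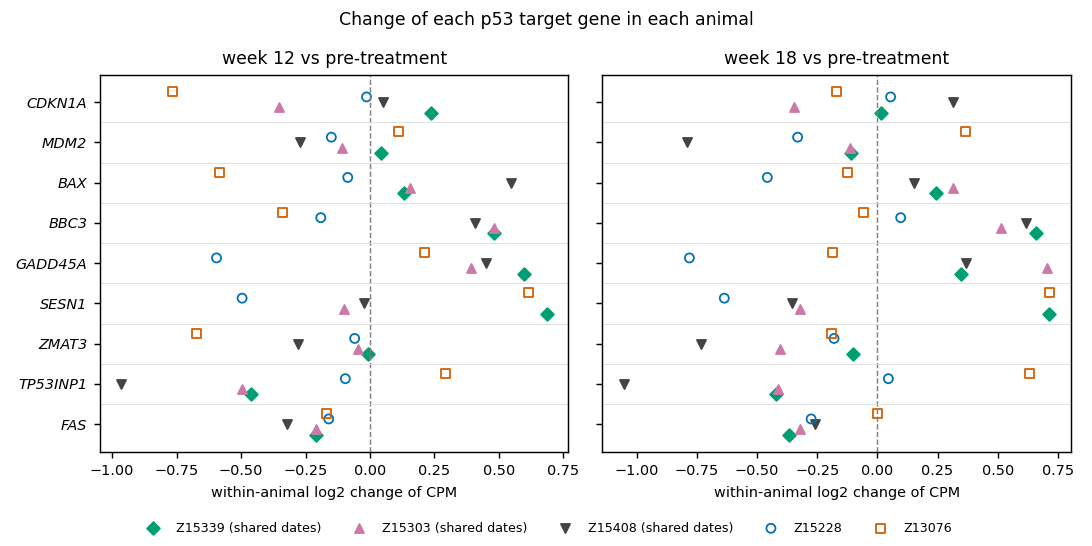
Change of each member in each animal (within-animal log2 change of CPM, horizontal axis) at week 12 and week 18 against pre-treatment; filled symbols are the 3 animals with shared dates in their library names, open symbols the other 2. *BBC3* and *GADD45A* lie to the right of 0 in the filled symbols at both times, and *FAS* lies to the left in each animal at week 12.

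A wider list of 32 further p53 targets was read in the same way. Of these, 30 were tested, and in each comparison 0 passed the adjusted threshold with edgeR, DESeq2 or limma-voom. With an unadjusted p under 0.05, 1 was higher and 2 were lower at week 12, beside 1.44% and 3.25% of all features. At week 18, 1 was higher and 1 lower, beside 2.07% and 3.78%. Between week 18 and week 12, 0 were higher or lower, beside 1.16% and 1.01%. In the same order, the list had medians of 0.01, −0.04 and −0.00 on the log2 scale. At week 12, 18 of the 30 had positive and 12 negative fold changes, which ranged from −0.64 for *PLK2* to 0.45 for *GDF15*. At week 18, 12 were positive and 18 negative, and the range was −0.33 to 0.85.

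The 2 polo-like kinases of this list, *PLK2* and *PLK3*, were lower at week 12 in 5 of 5 animals. With *POLH* they were the 3 genes of the list that were lower in each animal, and *FBXO22* was the 1 that was higher in each, beside 3.45% and 2.22% of features. *PLK2* stood at 30.4, 34.5, 17.3, 24.0 and 20.7 CPM before treatment and at 23.2, 10.7, 14.1, 19.7 and 14.02 CPM at week 12. Its log2 fold change was −0.64 (SE 0.18), with adjusted p = 0.559 in edgeR's test, and without the filter on low counts it passed with adjusted p = 0.0255. Without Z13076, whose week 12 library was described above, it was −0.38. *PLK3* stood at 36.2, 50.3, 30.6, 31.5 and 36.1 CPM before treatment and at 31.3, 29.6, 27.9, 20.3 and 29.2 CPM at week 12, with a log2 fold change of −0.41 (SE 0.13) and adjusted p = 0.669. At week 18 the fold change of *PLK3* was −0.30 (SE 0.13; adjusted p = 0.825) and was negative in 4 of 5 animals. Both genes are also immediate early genes, which respond to stimuli within minutes. The list of 11 other immediate early genes had medians of −0.13 and 0.07 on the log2 scale at week 12 and week 18. With an unadjusted p under 0.05, 1 was lower at week 12 and 2 were higher at week 18, beside 3.25% and 2.07% of all features. The part of this list in the values of *PLK2* and *PLK3* was not tested.

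*DDB2*, which recognizes ultraviolet lesions in nucleotide excision repair, was the target with an unadjusted p under 0.05 and a positive change at week 12. Its mean was 32.3 ± 8.98 CPM before treatment and 39.5 ± 12.3 at week 12, with a log2 fold change of 0.27 (SE 0.13; adjusted p = 0.982 in edgeR's test), and it was higher in 4 of 5 animals. *GDF15*, a secreted stress cytokine, was higher at week 18 in 5 of 5 animals, from 0.41, 0.79, 0.48, 2.11 and 0.91 CPM to 0.52, 1.46, 0.89, 4.25 and 1.77 CPM. *GDF15* rests on few counts, with 4 both before treatment and at week 18 in Z15228. Its log2 fold change was 0.85 (SE 0.37), and its adjusted p was 0.825 in edgeR's test. With *FBXO22* it made up the 2 genes of the list higher in each animal at week 18, beside 3.04% of features. The list had 0 genes lower in each animal, beside 3.49%.

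**Figure D4:**
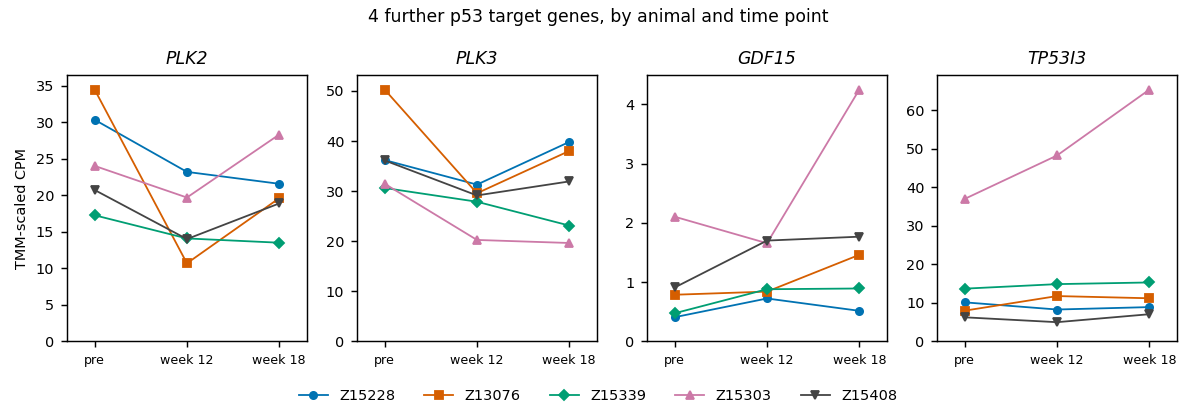
TMM-scaled CPM (vertical axis, from 0) of 4 p53 targets outside the member list, with lines joining the 3 libraries of each animal. *PLK2* and *PLK3* are lower at week 12 than before treatment in each animal, *GDF15* is near 1 CPM in most libraries, and *TP53I3* is highest in Z15303 at all 3 times (37.0, 48.3 and 65.4 CPM).

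The kinases and cofactors that act upstream of the members were measured next. Of 15 genes that regulate p53, 0 passed the adjusted threshold with edgeR, DESeq2 or limma-voom in any comparison, while 0, 2 and 0 were under 0.05 before adjustment in edgeR's test. Their medians were 0.00, −0.04 and −0.02 on the log2 scale. Both of the 2 were lower at week 18, where 3.78% of all features were lower at that threshold. *ATR*, the kinase that senses stalled replication forks, went from 25.0 ± 5.82 to 19.8 ± 4.94 CPM with a log2 fold change of −0.36 (SE 0.16; adjusted p = 0.825). *EP300*, an acetyltransferase that serves p53 and many other factors, went from 115 ± 11.5 to 99.0 ± 13.2 CPM, with a log2 fold change of −0.22 (SE 0.10; adjusted p = 0.825). Each was lower in 4 of 5 animals.

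Cell cycle genes, which active p53 lowers through p21, had 56.3 to 257 summed CPM per library over 13 measured genes, 12 of them tested. *E2F1* alone had 191 CPM in the library with the highest sum, Z15303 at week 18. It had 8.53 CPM in that with the lowest, Z13076 at week 18. The median log2 fold change of the 12 was 0.04 at week 12, −0.21 at week 18 and −0.32 between week 18 and week 12. With an unadjusted p under 0.05, 0 were higher or lower at week 12, beside 1.44% and 3.25% of all features. At week 18, 0 were higher and 1 lower, beside 2.07% and 3.78%. Between week 18 and week 12, 0 were higher and 2 lower, beside 1.16% and 1.01%. Of the 12, 0 passed the adjusted threshold with edgeR, DESeq2 or limma-voom. *MYBL2*, a transcription factor of dividing cells, had 16.0 ± 6.62, 16.1 ± 7.33 and 12.0 ± 4.78 CPM at the 3 times, and a log2 fold change of −0.41 (SE 0.19) at week 18 against both earlier times. *MKI67*, the marker of dividing cells, had 21.9 ± 9.57, 24.3 ± 6.89 and 20.2 ± 8.52 CPM, with −0.32 (SE 0.15) between week 18 and week 12 and lower values in 5 of 5 animals. The mean change of the 12 genes between these times was −0.62 in the 2 animals with other library dates and −0.07 in the 3 with shared dates. Within the latter, *MKI67* had a log2 fold change of −0.08 and *MYBL2* of −0.26. *CDKN1A* stood at 0.13 (SE 0.13) over all animals in the same comparison.

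Markers of blood cell types were read beside these values. All 10 tested B-cell markers had negative fold changes at both later times, with medians of −0.95 and −0.87. Of these markers, 10 and 9 were lower with an unadjusted p under 0.05, beside 3.25% and 3.78% of all features. In edgeR's test 0 passed the adjusted threshold. DESeq2 passed 8 of them at each time, where it passed 27 and 43 of all 12880 features. With limma-voom 6 and 5 passed, where 14 and 18 of all features did. The summed level of all 12 listed B-cell markers includes *PAX5* and *TNFRSF13C*, which were below the filter. This sum ranged from 272 to 1092 CPM before treatment, from 163 to 557 at week 12 and from 206 to 464 at week 18. The median log2 fold changes at week 12 and week 18 were 0.09 and 0.09 for 10 T-cell markers, 0.11 and −0.08 for 8 NK and cytotoxic markers, −0.15 and 0.22 for 9 monocyte markers, −0.23 and 0.31 for 5 neutrophil markers, 0.19 and 0.07 for 6 platelet markers, and −0.27 and −0.46 for 2 red cell markers. Of the members, *CDKN1A*, *MDM2*, *ZMAT3*, *TP53INP1* and *FAS* had negative fold changes at both later times, none of which passed. The part of B-cells in the members' values was not tested.

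**Figure D5:**
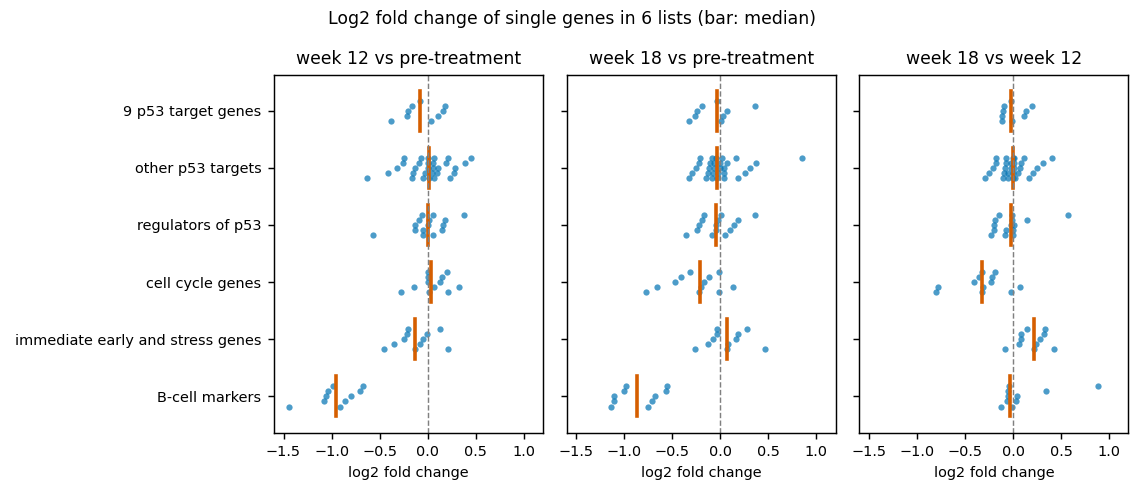
Log2 fold changes of single genes (points, horizontal axis) in 6 gene lists for the 3 comparisons, with the median of each list as an orange bar and the dashed line at no change. The members and the other p53 targets lie around 0 (medians −0.08 and 0.01 at week 12), while each B-cell marker lies below 0 at both later times (medians −0.95 and −0.87).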

How the data were processed

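Per the study's methods and the labels, RNA from the PBMCs of each animal was amplified with SMART-Seq v4 and Nextera XT, and the authors aligned reads with STAR 2.7.9a to the *M. nemestrina* annotation of Ensembl. The values deposited by the authors are whole-number counts per gene, without normalization or filtering. Groups came from the time point label and pairs from the subject label. Counts were scaled by TMM, filtered with filterByExpr (minimum count 10) and fitted over all 15 libraries with edgeR 4.0.16 in R 4.3.3, with the time point and the animal as terms. The animal was a block because libraries were paired by subject. Deviations from the group means correlated within an animal (mean r 0.551, range 0.351 to 0.683 over 15 pairs). The mean r was −0.137 over 60 pairs of different animals and time points. Centring on the group means largely sets this second value once the first is known, so it is no separate evidence for the pairing. With the block, biological variation fell from a coefficient of 29.3% to 16.9%. The methods name DESeq2's Wald test, which was run as an alternative.

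Log2 CPM of single libraries used a prior count of 2. With the animal as a block, p-values measure the spread of the within-animal changes, and not that of the levels between animals. The estimates of this spread borrow from all features. The scripts were tested on simulated data. Alternatives were no block, DESeq2 1.42.0, limma-voom (limma 3.58.1), other scalings and filters, a prior count of 0.5, leaving out each animal, and only the 3 animals with shared library dates. Named genes were all members, *MDM4* and, from the lists of other targets, regulators and cell cycle genes, up to 8 per comparison with an unadjusted p under 0.05. Other genes were named after their values were seen. The members and lists were chosen with earlier results of these data known. Some withheld items of these lists are left out. The gene table at hand paired no member with a reference entry, so gene lengths, positions and sequences are not given. Of the listed genes, *RRM2B*, *PMAIP1*, *BIRC5*, *JUN*, *FCN1*, *CXCR1*, *CXCR2*, *FCGR3B*, *HBB* and *HBA1* were not analysed here, and *SPATA18*, *CDC25C*, *PAX5*, *TNFRSF13C* and *AHSP* were below the filter.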

Additional observations from a re-analysis of the deposited data

Results flagged for a closer look

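In 4 of 54 groups of 5 animals, 1 animal stood far from the others on the log2 scale, by more than Dixon's 95% critical value. Chance gives about 1 in 20 such groups. *BAX* at week 18 was 176 CPM in Z15303, where the next animal had 133 CPM. *GADD45A* at week 12 was 30.5 CPM in Z13076, where the next had 23.2 CPM. *ZMAT3* at week 12 was 7.70 CPM in Z13076, where the next lowest had 15.3 CPM. *PLK3* at week 12 was 20.3 CPM in Z15303, where the next lowest had 27.9 CPM. Both Z13076 values belong to the week 12 library described above, and Z15303 had the shallowest libraries at both later times. The part of cell populations or of depth in these 4 values was not tested.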

How the results depend on the processing

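No member passed the adjusted threshold under any of 13 alternatives in any comparison, and the medians of the members and of the other p53 targets moved by less than the spread between animals. The number of features past the threshold was 1 at week 12, 1 at week 18 and 0 between week 18 and week 12. Without the replicate block (the pairing by animal) it was 0 at week 12 and 0 at week 18. It was 27, 43 and 1 with DESeq2, 14 and 18 with limma-voom at week 12 and week 18, 10 at week 18 with library size alone, 83, 136 and 5 without the filter, and 7 and 7 in the 3 animals of shared dates. Leaving out each animal gave 0 to 6 at week 12 and 0 to 17 at week 18. Members with an unadjusted p under 0.05 at week 18 numbered 0 to 5 when each animal was left out, with 5 without Z13076. The share of all features under that threshold in these fits is not given, so the counts cannot be read as a result about the members. Of 351 member values under alternatives, 17 had the other sign. *SESN1* at week 18 was −0.0122 with library size alone. In the 3 animals, *CDKN1A* (0.00666) at week 18 and *MDM4* (0.0542) and *PLK3* (−0.0587) between week 18 and week 12 changed sign. *MYBL2* at week 12 was 0.0209 without the block, 0.00199 with DESeq2, 0.0322 with limma-voom, 0.00491 with size factors, 0.0054 without the filter, 0.000988 with a minimum count of 30 and 0.0101 in the 3 animals. Leaving out each animal, week 12 values were −0.0237 to 0.28 for *SESN1*, −0.15 to 0.16 for *MYBL2* and −0.0949 to 0.18 for *BAX*. Week 18 values were −0.12 to 0.0542 for *CDKN1A*, −0.17 to 0.19 for *SESN1*, −0.0443 to 0.15 for *BAX* and −0.0891 to 0.32 for *GADD45A*. Between week 18 and week 12 they were −0.12 to 0.0910 for *BAX*, −0.0612 to 0.0819 for *MDM4* and −0.0787 to 0.0032 for *FAS*. The cause of these differences was not tested. The prior count changed no member value by more than the spread.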

Other observations

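A pair of genes from the lists differed more between animals than within them, and both were picked after their values were seen. *TP53I3*, an oxidoreductase that p53 induces, had 37.0, 48.3 and 65.4 CPM in the 3 libraries of Z15303 and 5.01 to 15.3 CPM in the 12 libraries of the other animals. Its SD between animal means was 4.33 times its SD within animals, and 0.520% of all features had a ratio as high. *E2F1*, a transcription factor of the cell cycle, had 95.4 to 191 CPM in Z15228 and Z15303 and 5.70 to 18.4 CPM in the other 3 animals, with a ratio of 4.81, as high as in 0.373% of features. No time point moved either animal group into the range of the other. Both genes also varied over time. *TP53I3* had log2 fold changes of 0.11 (SE 0.16) at week 12 and 0.31 (SE 0.16) at week 18, with higher values in 4 of 5 animals at week 18. *E2F1* had −0.27 (SE 0.20) and −0.20 (SE 0.20). Neither gene passed the adjusted threshold.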
